A study of Mus musculus with 12 samples.

Results

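Scaffold proteins of the postsynaptic density were examined through 9 genes: Dlg1, Dlg2, Dlg3 and Dlg4, Shank1, Shank2 and Shank3, Dlgap1 and Homer1. They were taken by name out of 18820 distinct gene symbols on the array, and each gene was represented by its probe set with the highest mean over the 12 samples among those assigned to that gene alone. All 9 were measured, and Dlgap1 was the only one with a second probe set of its own. Expression was measured in the micro-dissected medial prefrontal cortex of C57BL/6N mice aged 12 weeks, whose mothers had received an intravenous injection on gestation day 17, either of saline (6 control offspring) or of poly(I:C) at 5 mg/kg, a synthetic double-stranded RNA that mimics viral infection (6 PolyI:C offspring, named as in the labels). All offspring had gone through behavioural tests before the tissue was taken. Each animal gave 1 array, and the comparison asks whether immune activation before birth leaves a difference in the adult cortex. Litter and sex are not in the labels, some animals may be littermates, and the p-values rest on the spread among the 12 animals only.

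The postsynaptic density is the protein mesh beneath the membrane of excitatory synapses on dendritic spines. The Dlg proteins are membrane-associated guanylate kinases whose PDZ domains hold glutamate receptors, potassium channels and adhesion proteins at the membrane. Dlgap1 binds their guanylate kinase-like domain and links them to the Shank proteins deeper in the mesh, and Homer1 joins Shank to metabotropic glutamate receptors and to calcium channels of internal stores. Homer1 also has a short form, made after neuronal activity, that lacks the part through which the long forms pair up; a single value per gene does not separate these forms.

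None of the 9 scaffold genes passed an adjusted p under 0.05 in limma, where 2.83% of all 23099 probe sets with a gene did, 2.02% in the higher and 0.805% in the lower direction. At an unadjusted p under 0.05, Homer1, Dlg1 and Dlg2 had higher means after poly(I:C), or 3 of 9, against 19.1% of all probe sets in either direction (11.7% higher and 7.33% lower). The balance of directions depended on scaling: of all probe sets, 467 were higher and 186 lower past the adjusted threshold as deposited, 239 and 285 after quantile normalization, and 298 and 232 with each array centred on its median, and under either scaling 1 of the 9 scaffold genes had an unadjusted p under 0.05. In 8 of the 9 genes the PolyI:C mean lay above the control mean, which was so for 52% of all probe sets (Shank3 moved below it under both other scalings), and the median log2 difference of the 9 was 0.049 against 0.003 over the whole table. All 9 genes were brighter than the median probe set, and brighter probe sets differed more often and more often upwards. Over the 11550 probe sets at or above that median, 24% had an unadjusted p under 0.05 (19.1% higher), 65.7% had a PolyI:C mean above the control mean, and the median log2 difference was 0.026. In none of the 9 did the groups separate without overlap, which happened in 2.37% of all probe sets and 3.53% of the brighter ones. The 95% intervals of the 9 differences lay between -6.7% and 23.3% of the control level, and for Dlg3, Dlg4, Shank1, Shank3 and Dlgap1 the interval stayed within 10% of no change.

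**Figure D1:**
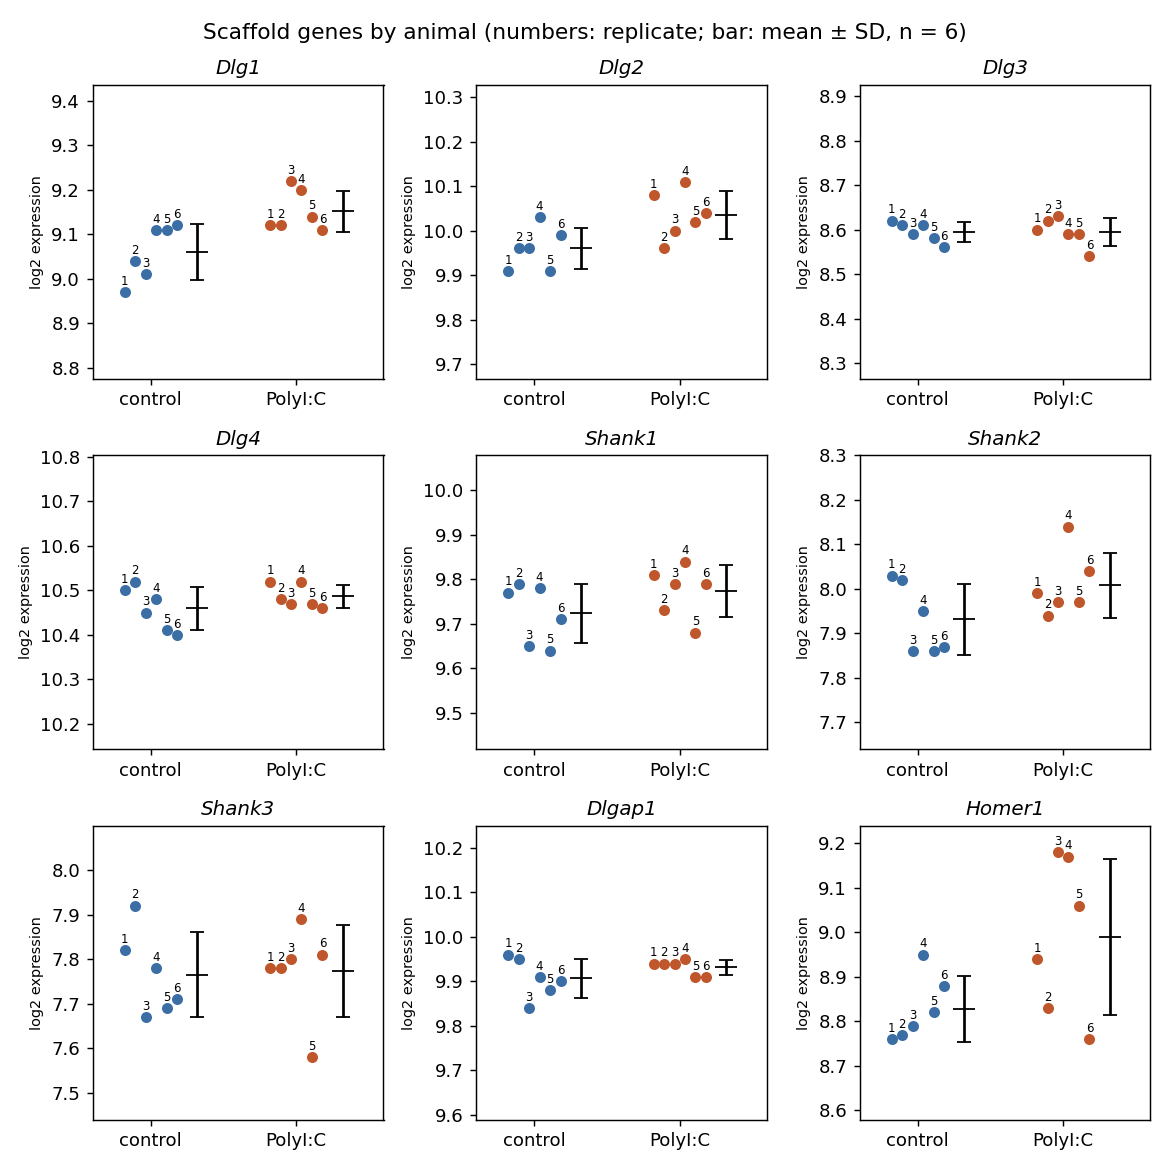
Log2 expression of the 9 scaffold genes in each animal, with the same vertical span in every panel; numbers beside the points are replicate numbers, and the black bars give mean and SD (n = 6 per group). The groups overlap in every panel, and Homer1 has the widest spread, with PolyI:C animals from 8.76 to 9.18.

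Among the Dlg genes, Dlg1 encodes the family member that also serves outside synapses, in trafficking of AMPA receptors and in epithelial junctions. Its log2 values (probe set 10434942) ran from 8.97 through a median of 9.07 to 9.12 in controls and from 9.11 through 9.13 to 9.22 in PolyI:C animals. The groups met only at this edge: 4 of 6 PolyI:C animals lay above the highest control, and 3 controls lay below the lowest PolyI:C animal. The mean went from 9.06 ± 0.061 to 9.15 ± 0.048 (SD, n = 6 each), a log2 difference of 0.089 ± 0.035 (SE) or 6.3% (95% interval 1.1% to 11.9%). It did not pass in limma (adjusted p = 0.17), and the exact permutation test over 924 splits, two-sided, gave an unadjusted p = 0.019. The log2 difference of Dlg1 was 0.067 ± 0.034 (SE) after quantile normalization and 0.078 ± 0.039 with each array centred on its median.

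Dlg2 encodes a close relative of Dlg4 that clusters NMDA receptors and potassium channels. Its values (probe set 10554900) ran from 9.91 through 9.96 to 10.03 in controls and from 9.96 through 10.03 to 10.11 in PolyI:C animals. Controls 1 and 5 were lowest and PolyI:C 4 and 1 highest, and the ranges shared the stretch in between. The log2 difference was 0.074 ± 0.033 (SE), or 5.2% (95% interval 0.2% to 10.5%, limma adjusted p = 0.24, exact permutation p = 0.035, unadjusted). After quantile normalization it was 0.053 ± 0.033 (SE), and with median-centred arrays 0.063 ± 0.035.

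Dlg4 encodes the most abundant of the family at mature excitatory synapses. Its values (probe set 10377725) ran from 10.40 through 10.46 to 10.52 in controls and from 10.46 through 10.48 to 10.52 in PolyI:C animals, so the PolyI:C range lay inside the upper part of the control range. The log2 difference of 0.026 ± 0.030 (SE) corresponded to 1.8%, with a 95% interval from -2.6% to 6.4% (limma adjusted p = 0.69). Controls 5 and 6 had the lowest Dlg4 values, 10.41 and 10.40, and without both of them the difference was -0.001. After quantile normalization it was 0.003.

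Dlg3, which binds NMDA receptors and is prominent early in synapse formation, had the smallest spread of the 9. Its values (probe set 10601062) ran from 8.56 through 8.60 to 8.62 in controls and from 8.54 through 8.60 to 8.63 in PolyI:C animals, so the PolyI:C range enclosed that of the controls. The log2 difference was -0.001 ± 0.027 (SE), with a 95% interval from -3.9% to 4.0% (limma adjusted p = 0.99), and its sign turned when single animals were left out. The within-group SD of Dlg3, 0.027, was larger than that of only 0.9% of all probe sets.

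The Shank genes encode the large scaffolds that bind Dlgap proteins through their PDZ domain and Homer through a proline-rich stretch. Shank2 (probe set 10559343) ran from 7.86 through 7.91 to 8.03 in controls and from 7.94 through 7.98 to 8.14 in PolyI:C animals. All 6 PolyI:C animals lay above the control mean, yet controls 1 and 2 reached above 4 of them. The log2 difference was 0.078 ± 0.042 (SE), or 5.5% (95% interval -0.8% to 12.3%; limma adjusted p = 0.33). It was 0.044 after quantile normalization and 0.051 without PolyI:C 4, the highest animal.

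Shank1 (probe set 10552632) ran from 9.64 through 9.74 to 9.79 in controls and from 9.68 through 9.79 to 9.84 in PolyI:C animals, a log2 difference of 0.049 ± 0.037 (SE) or 3.4% (95% interval -2.1% to 9.2%; limma adjusted p = 0.50). Without control 5 it was 0.032. Shank3 (probe set 10426261) ran from 7.67 through 7.74 to 7.92 in controls and from 7.58 through 7.79 to 7.89 in PolyI:C animals. Its lowest value, in PolyI:C 5, stood well below the next PolyI:C animal at 7.78. The log2 difference of Shank3 was 0.009 ± 0.052 (SE), with a 95% interval from -6.7% to 8.5% (limma adjusted p = 0.95). Its sign depended on scaling, being -0.021 after quantile normalization and -0.002 with each array centred on its median. Without PolyI:C 5 the Shank3 difference was 0.048, without PolyI:C 4 it was -0.015, and it was also below 0 without control 3, 5 or 6, none of these past the threshold.

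Dlgap1, the linker between the Dlg and Shank layers, ran from 9.84 through 9.90 to 9.96 in controls and from 9.91 through 9.94 to 9.95 in PolyI:C animals (probe set 10446596). The log2 difference was 0.023 ± 0.029 (SE), with a 95% interval from -2.6% to 6.0% (limma adjusted p = 0.70). It was 0.011 without control 3, 0.035 without control 1 and 0.002 after quantile normalization. Its second probe set (10446592) had group means of 8.49 ± 0.085 and 8.47 ± 0.054 (SD, n = 6 each) and differed by -0.020 ± 0.040 (SE; limma adjusted p = 0.83), so the 2 probe sets gave estimates on either side of 0 whose intervals both held 0.

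Homer1, the linker to metabotropic receptors, had the largest difference and the widest spread of the 9. Its values (probe set 10406626) ran from 8.76 through 8.80 to 8.95 in controls and from 8.76 through 9.00 to 9.18 in PolyI:C animals. PolyI:C 3, 4 and 5 lay above every control, at 9.18, 9.17 and 9.06, while PolyI:C 6 was level with the lowest control at 8.76 and PolyI:C 2 lay at 8.83, inside the control range. The mean went from 8.83 ± 0.075 to 8.99 ± 0.177 (SD, n = 6 each), a log2 difference of 0.162 ± 0.066 (SE) or 11.9% (95% interval 1.6% to 23.3%). It did not pass in limma (adjusted p = 0.19), and the exact permutation test gave an unadjusted p = 0.078, two-sided. Without PolyI:C 6 the difference was 0.208 and without PolyI:C 3 it was 0.124, and the adjusted p stayed between 0.087 and 0.337 over all alternatives run.

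**Figure D2:**
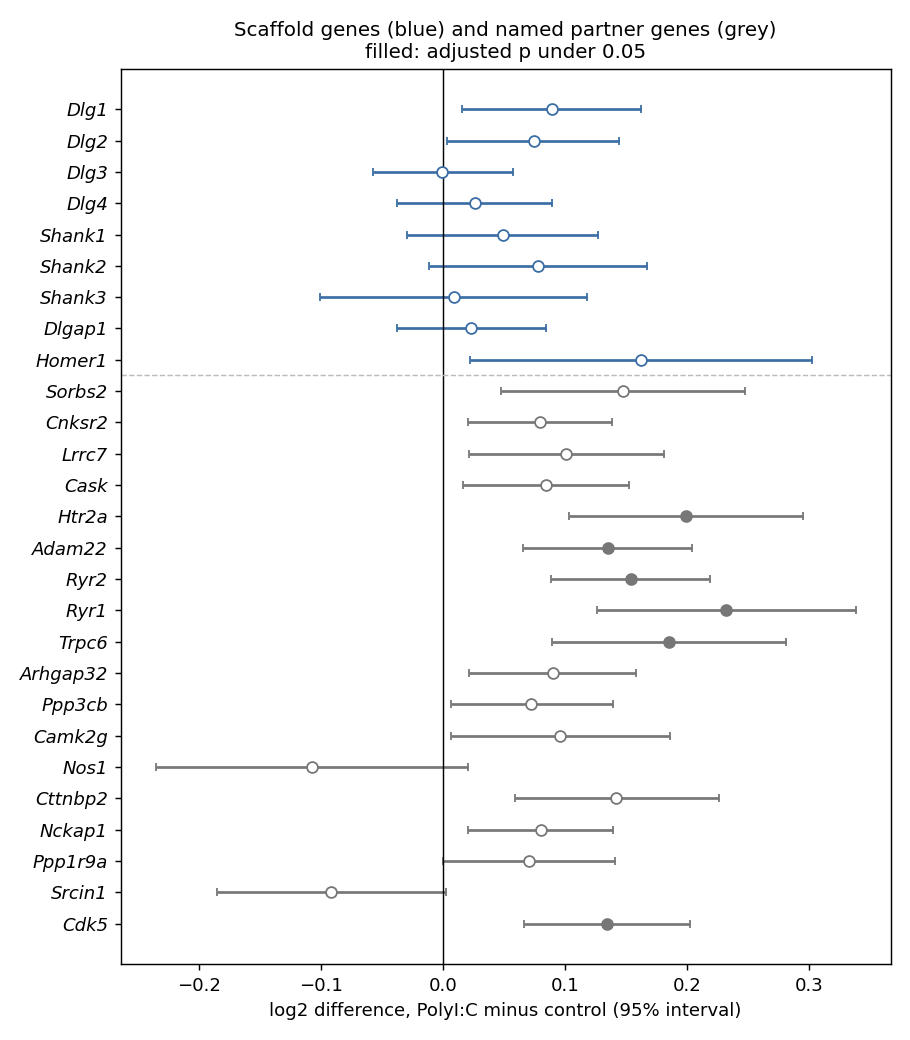
Log2 differences, PolyI:C minus control, with 95% intervals from limma for the 9 scaffold genes (blue, above the dashed line) and the 18 partner genes named below them (grey); filled points passed an adjusted p under 0.05. No scaffold gene is filled, Homer1 has the widest interval (0.022 to 0.302), and the 6 filled partner genes all lie above 0.

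Some animals stood at the same end of their group in several genes. PolyI:C 4 had the highest value of its group in 6 of the 9 genes and PolyI:C 6 the lowest in 5. Control 2 was the highest control in 3, while control 1 was the highest in 3 and the lowest in 3 others. To see which genes shared this variation, group means were removed and the 36 gene pairs were correlated over the 12 animals (100000 permutations within groups, two-sided, adjusted over the 36 pairs). All genes of an animal come from 1 array and its normalization, and the part of these in the correlations was tested only by centring each array on its median.

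Shank1 and Shank3 varied together most closely (Pearson r = 0.87, permutation p = 0.00029, adjusted 0.010; Spearman rho = 0.90, permutation p = 0.00085, adjusted 0.017). Without control 5 and PolyI:C 5, the 2 animals farthest from the median of Shank1, r was 0.81, and with median-centred arrays it was 0.91. Within the controls r was 0.87 and within the PolyI:C animals 0.88. Of the 9519 genes brighter than the median, with the pair itself included, 0.17% had as high an r with Shank1 and 0.25% with Shank3.

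Dlg1 and Homer1 formed the other pair that passed (Pearson r = 0.76, permutation p = 0.0011, adjusted 0.020; Spearman rho = 0.80, permutation p = 0.00094, adjusted 0.017). Without control 6 and PolyI:C 3, the 2 animals farthest from the median of Dlg1, r was 0.69, and with median-centred arrays it was 0.81. PolyI:C 3 and PolyI:C 4 were the highest in both genes, and control 1 was the lowest control in both. Within the controls r was 0.80 and within the PolyI:C animals 0.90. As high an r was reached by 1.1% of the 9519 genes with Dlg1 and by 0.89% with Homer1.

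The other pairs did not pass by Pearson's r after adjustment. Among Dlg4, Shank1, Shank2, Shank3 and Dlgap1, a set singled out after its values were seen, the 10 pairs had r from 0.68 to 0.87, 1 of them past adjustment by r and 6 by rho. Within the controls r ran from 0.73 to 0.93 and within the PolyI:C animals from 0.28 (Shank2 with Dlgap1) to 0.88. For comparison, 1.6% of genes had r of at least 0.7 with Dlg4, 3.0% with Shank1, 2.5% with Shank2, 3.2% with Shank3 and 3.6% with Dlgap1. Leaving out the 2 farthest animals gave r from 0.58 to 0.81 in this set, and centring the arrays on their medians gave 0.77 to 0.91. The same 5 genes against Dlg1 or Homer1 gave r from -0.37 to 0.16, and from 0.09 to 0.36 with median-centred arrays. The pairs of Dlg3 and Dlg2 did not pass, with Dlg3 at r = 0.60 with Dlg4 and 0.58 with Dlgap1 (adjusted permutation p = 0.094 for both), and Dlg2 at 0.49 with Shank1 (adjusted permutation p = 0.31).

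**Figure D3:**
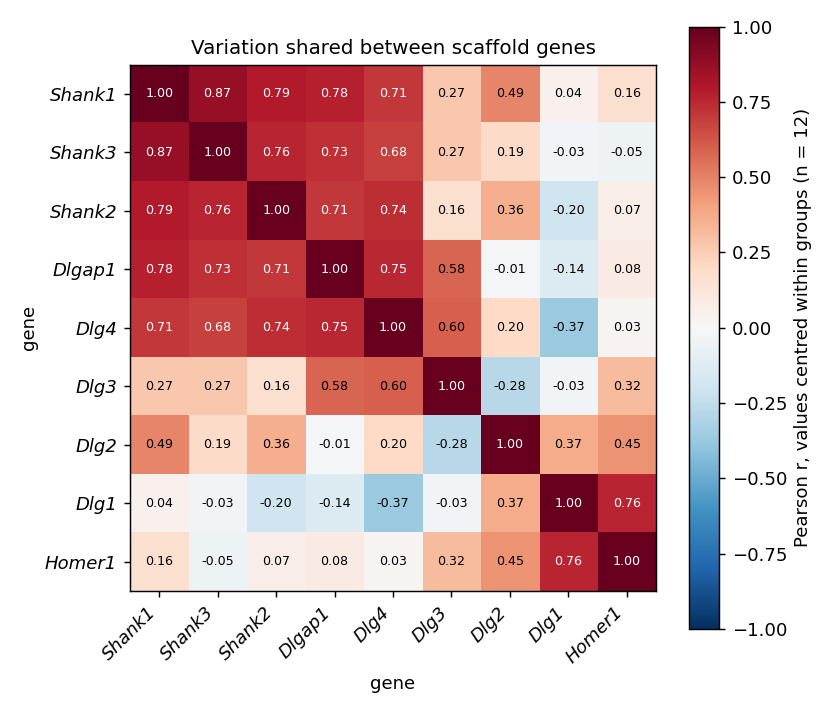
Pearson correlation of every pair of the 9 scaffold genes over 12 animals after removing group means; the colour scale runs from -1 to 1. Shank1, Shank3, Shank2, Dlgap1 and Dlg4 form a block of r from 0.68 to 0.87, and Dlg1 and Homer1 pair at 0.76; the values are not median-centred.

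**Figure D4:**
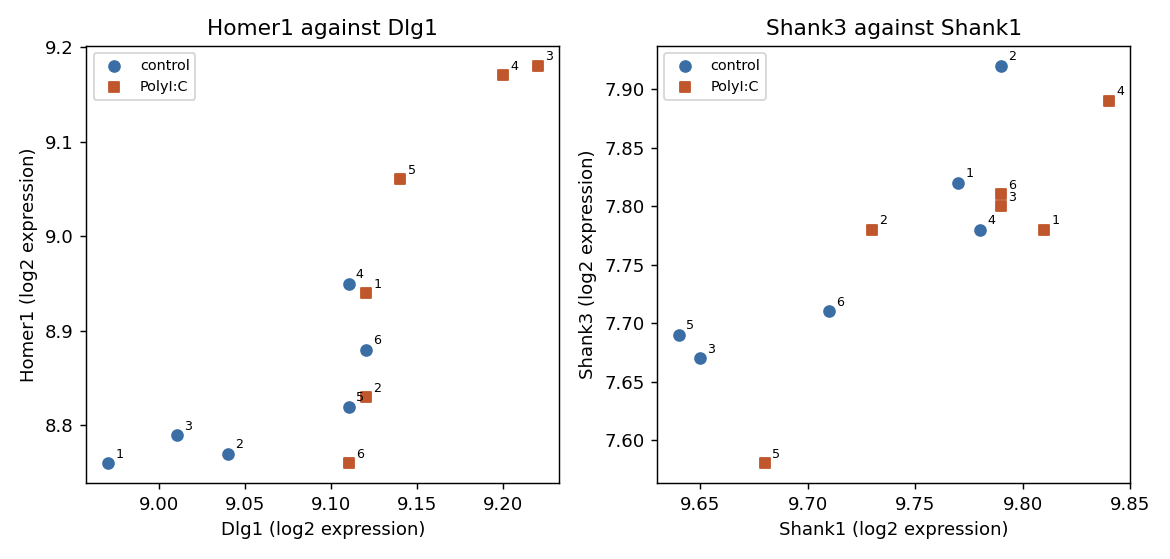
Log2 expression of Homer1 against Dlg1 (left) and of Shank3 against Shank1 (right), with each animal marked by its replicate number. In the left panel PolyI:C 3 and 4 lie at the upper right, and in the right panel PolyI:C 5 is lowest in Shank3 at 7.58.

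Of the 4 genes in the pairs that passed, Homer1, Dlg1 and Shank3 have a promoter window in the RefSeq sequences used here, and these are shown to let the paired genes be compared. Each runs from 250 bases before to 50 bases after the transcript start listed first for the gene, on the plus strand of GRCm38.p6: chr13:93303507-93303806 for Homer1, chr16:31663685-31663984 for Dlg1 and chr15:89499358-89499657 for Shank3. Homer1 has 1 further start listed and Dlg1 has 3, and the array values do not tell which start was used. Capitals mark the 5 letters TGACG, a half-site of the cyclic AMP response element, and the GC box GGGCGG. Each was searched on both strands (CGTCA and CCGCCC on the other strand), and no matches overlapped. Positions give the first base of a match, with 1 as the first base of the transcript.
Homer1 promoter: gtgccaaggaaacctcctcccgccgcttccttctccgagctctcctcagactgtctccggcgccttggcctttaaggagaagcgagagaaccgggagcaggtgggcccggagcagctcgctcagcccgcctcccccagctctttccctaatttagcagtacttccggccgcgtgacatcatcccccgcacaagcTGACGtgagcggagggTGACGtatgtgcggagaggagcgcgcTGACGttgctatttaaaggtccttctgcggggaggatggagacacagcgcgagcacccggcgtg
Dlg1 promoter: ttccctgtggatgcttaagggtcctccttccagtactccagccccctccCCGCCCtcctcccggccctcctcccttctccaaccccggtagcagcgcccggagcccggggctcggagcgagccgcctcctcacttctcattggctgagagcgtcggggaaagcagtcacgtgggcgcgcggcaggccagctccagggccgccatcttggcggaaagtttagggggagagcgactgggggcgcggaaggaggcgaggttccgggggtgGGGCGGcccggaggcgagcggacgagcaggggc
Shank3 promoter: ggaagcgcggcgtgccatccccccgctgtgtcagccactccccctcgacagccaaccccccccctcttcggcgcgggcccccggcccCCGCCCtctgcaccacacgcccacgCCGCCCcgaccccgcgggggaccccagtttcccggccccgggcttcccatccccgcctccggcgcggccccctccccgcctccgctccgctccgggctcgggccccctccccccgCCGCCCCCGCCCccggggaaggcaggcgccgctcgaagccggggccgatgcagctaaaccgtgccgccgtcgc

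The Homer1 window held TGACG 3 times, beginning at positions -56, -40 and -14 from the start and all in the sense direction. Of 32851 such windows, 20.8% held this motif at least 1 time and 1.03% at least 3 times. The Dlg1 window held none and had 2 GC boxes, at -201 and 18, and the Shank3 window had 4 GC boxes, at -163, -138, -23 and -17, as did 5.49% of windows at that number or more. GC content was 63.0% for Homer1, 71.0% for Dlg1 and 81.0% for Shank3, against a median of 52.7%. Neither motif was present in both the Homer1 and the Dlg1 window.

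By the rule of naming the 3 genes with the most similar pattern after removing group means, over 9519 genes and 12 animals, Homer1 was followed most closely by Cacnb4 (r = 0.93, rho = 0.95), a calcium channel subunit, Pdp1 (r = 0.93) and Pcsk1 (r = 0.93). Dlg1 was followed by Ephx4 (r = 0.96, rho = 0.88), Vps13a (r = 0.93) and Zfp644 (r = 0.90). Among these genes, Vps13a, a lipid transfer protein, passed the comparison of groups (log2 difference 0.22 ± 0.04 SE, limma adjusted p = 0.0098). Ephx4 also passed, narrowly (0.17 ± 0.04 SE, adjusted p = 0.0498), and Zfp644, Cacnb4, Pdp1 and Pcsk1 did not. These values of r are the highest among 9519, so they describe the likeness and carry no p.

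The genes most like the other scaffolds were Agpat3, Arhgef17 and Caskin1 for Dlg4 (r = 0.95, 0.94 and 0.94), Mapk4, Tmem178b and Adgrb1 for Shank1 (0.93, 0.92 and 0.92), and Tnk2, Zbtb18 and Prrc2a for Shank3 (0.93 each). Caskin1 encodes a binding partner of the scaffold Cask, and Adgrb1 an adhesion receptor of synapses. For Shank2 they were Gclm (r = 0.92), Camk2n2, an inhibitor of CaM kinase II (0.90), and Ercc3 (0.90), and for Dlgap1 Rptor, Dmtn and Foxk1 (0.95, 0.94 and 0.92). Dlg2 was followed by 4933409K07Rik, BC005537 and Zfp62 (r = 0.92, 0.90 and 0.86) and Dlg3 by Aldh1a1, Car4 and Tgfb3 (0.87, 0.83 and 0.82). None of these 21 genes passed the comparison of groups in limma, with Zbtb18 at 0.13 ± 0.05 (SE; adjusted p = 0.15) and 4933409K07Rik at 0.18 ± 0.07 (adjusted p = 0.13).

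The proteins that the scaffolds hold or answer to were followed through 6 lists, in which 130 of 148 genes had a probe set of their own. Of the 130, 6 were higher past the adjusted threshold and none lower, or 4.62% against 2.83% of all probe sets, and 30 had an unadjusted p under 0.05, or 23.1% against 19.1%. The median log2 difference over the 130 was 0.031, beside 0.049 for the scaffolds, 0.003 for all probe sets and 0.026 for the brighter ones. Of the 130 genes, 128 were brighter than the median probe set, and all 6 that passed were among them. Of probe sets that bright, 4.18% passed with p-values adjusted over all probe sets, against 4.69% of the 128, and 24% had an unadjusted p under 0.05, against 23.4%. With the adjustment over the brighter probe sets alone, 9 of the 128 passed, or 7.03% against 7.52%. The share of partner genes was thus near that of probe sets of such brightness. Ryr1 counted as brighter only through its PolyI:C animals (mean 5.94 against 5.71 in controls, with the median probe set at 5.8). Its place among the 128 thus depended on the group difference itself. The 6 genes were Htr2a, Adam22, Ryr2, Ryr1, Trpc6 and Cdk5. Under other scaling the count fell, to 2 after quantile normalization and 3 with median centring. Without variance moderation the count was 2, but of the 6 genes only Ryr2 passed (adjusted p = 0.038 in limma). There Htr2a, Adam22, Ryr1, Trpc6 and Cdk5 had adjusted p from 0.061 to 0.101. With all rows of the table tested the count was 1, Ryr2. Leaving out 1 animal gave a count of 1 without control 2 or control 3, and 2 without control 1, PolyI:C 1, PolyI:C 3 or PolyI:C 4.

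Among 24 genes listed as receptors, channels and adhesion proteins for the PDZ domains of the Dlg family, 2 rose and 22 did not pass (median log2 difference 0.037). This list also held Lgi1, a secreted protein. Htr2a, the serotonin 2A receptor, whose tail binds Dlg4, ran from 8.51 through 8.70 to 8.74 in controls and from 8.76 through 8.90 to 8.96 in PolyI:C animals. All PolyI:C animals lay above all controls, and Htr2a rose by 0.20 ± 0.05 on the log2 scale (SE; limma adjusted p = 0.029). Adam22, the receptor of the secreted protein Lgi1 and a ligand of Dlg4, rose by 0.13 ± 0.03 (adjusted p = 0.039), also without overlap, from 8.64 through 8.69 to 8.77 in controls and from 8.79 through 8.83 to 8.92 in PolyI:C animals. The call of Htr2a was lost without control 1, 2 or 3 or without PolyI:C 1, 3 or 4 (adjusted p up to 0.0684), and after quantile normalization (0.0534). That of Adam22 was lost without control 1, 2, 3 or 6 or without PolyI:C 1, 3, 4 or 6 (adjusted p up to 0.0921), and after quantile normalization or median centring (0.0863 and 0.0872).

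Among 12 measured receptors, calcium channels and other proteins that Homer proteins bind, 3 rose and 9 did not pass (median log2 difference 0.045). The other proteins in this list were Agap2, Dbn1, Dnm3 and Nfatc3. The mean level of the 12 ran from 7.67 to 7.74 in controls and from 7.77 to 7.83 in PolyI:C animals. This mean includes the 3 genes that passed, and array medians ran from 5.15 to 5.21. Whether the narrow gap held under other scaling was not tested. Ryr2, a calcium release channel of the endoplasmic reticulum, ran from 8.52 through 8.54 to 8.65 in controls and from 8.67 through 8.71 to 8.76 in PolyI:C animals, with no overlap. It rose by 0.15 ± 0.03 (SE, limma adjusted p = 0.017). Ryr2 was the 1 gene of the 6 that passed in all 22 alternative fits run for the partner genes (adjusted p from 0.0092 to 0.0465). In the exact permutation test no probe set passed after adjustment (smallest adjusted p = 0.091). Ryr1, the related channel best known from skeletal muscle, rose by 0.23 ± 0.05 (adjusted p = 0.024), from 5.64 through 5.71 to 5.76 in controls to 5.80 through 5.94 to 6.15 in PolyI:C animals, again with no overlap. Its signal was dim, with all control values below the median probe set at 5.8. Trpc6, a cation channel of the plasma membrane, rose by 0.19 ± 0.05 (adjusted p = 0.039), and its groups overlapped, with controls up to 6.64 and PolyI:C animals from 6.54. The call of Ryr1 was lost without control 2 or 3 (adjusted p = 0.0619 and 0.0509), without PolyI:C 6, where the adjusted p lay at the threshold, and without controls 5 and 6 together (0.0618). This call was also lost without variance moderation (0.083) and with all rows of the table tested (0.055). That of Trpc6 was lost without any single animal other than control 6, PolyI:C 2 or PolyI:C 5 (adjusted p up to 0.0925), and after quantile normalization or median centring (0.0762 and 0.0601).

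Of 22 genes listed for the palmitoylation and turnover of Dlg4 and Shank, 1 rose and 21 did not pass (median log2 difference 0.039). Cdk5, a kinase that phosphorylates Dlg4, rose by 0.13 ± 0.03 (SE; limma adjusted p = 0.037), from 8.86 through 8.92 to 8.98 in controls and 9.02 through 9.05 to 9.13 in PolyI:C animals, with no overlap. This call was lost without control 1, 2 or 3 or without PolyI:C 1, 3, 4 or 5 (adjusted p up to 0.0871), and after quantile normalization or median centring (0.0634 and 0.0694).

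In the other 3 lists no gene passed in limma. As a background for their counts, 65.7% of the brighter probe sets had a higher PolyI:C mean. An unadjusted p under 0.05 in limma was found for 24% of them. Of 27 further scaffold proteins, 20 had higher means and 7 an unadjusted p under 0.05. The lowest p-values belonged to Sorbs2, an adaptor to the actin skeleton (log2 difference 0.15 ± 0.05 SE, adjusted p = 0.097), and Cnksr2, a partner of Dlg4 (0.08 ± 0.03, 0.13). Next came Lrrc7, which binds CaM kinase II (0.10 ± 0.04, 0.15), and Cask, a membrane-associated guanylate kinase (0.08 ± 0.03, 0.16). After quantile normalization the log2 difference of Cnksr2 was 0.05 (limma adjusted p = 0.348). Sorbs2 passed without control 4 or without PolyI:C 5 (adjusted p = 0.0386 and 0.0488). Of 23 signalling enzymes, 16 had higher means and 3 an unadjusted p under 0.05, with Arhgap32 at 0.09 ± 0.03, Ppp3cb, a calcineurin subunit, at 0.07 ± 0.03, Camk2g at 0.10 ± 0.04 and Nos1, the nitric oxide synthase tied to Dlg4, at -0.11 ± 0.06 (adjusted p from 0.14 to 0.34). Camk2g was 0.034 without controls 5 and 6, and Nos1 was -0.061 without control 2.

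Of 22 actin-linked spine proteins, 16 had higher means and 2 an unadjusted p under 0.05. Cttnbp2, which holds cortactin in spines, differed by 0.14 ± 0.04 (SE; limma adjusted p = 0.061) with no overlap between groups. It passed without control 4 or control 5 (adjusted p = 0.0468 and 0.0461), with only the brighter probe sets tested (0.0402) and with a robust variance trend (0.0437). Nckap1, of the complex that drives actin branching, differed by 0.08 ± 0.03, Ppp1r9a, which binds actin and protein phosphatase, by 0.07 ± 0.03, and Srcin1 by -0.09 ± 0.04 (adjusted p from 0.13 to 0.27). Ppp1r9a was 0.035 after quantile normalization, and Srcin1 was -0.139 without controls 5 and 6.

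The tissue and its composition were read from marker lists. All 8 measured markers of cortical excitatory neurons, the cells that carry most of these synapses, were brighter than the median probe set, and none passed; their mean level ran from 8.95 to 9.08 in controls and from 9.01 to 9.07 in PolyI:C animals. In bulk tissue, fewer cells of a type and less RNA per cell cannot be told apart. Markers of interneurons, astrocytes and microglia (9, 10 and 10 measured) had no member past the threshold, with median differences of -0.023, -0.007 and -0.028, and neither had the 10 endothelial and pericyte markers (-0.050). Of 17 myelin markers 8 were lower past the adjusted threshold in limma, against 0.805% of all probe sets, and 5 without controls 5 and 6. All 17 had lower means with an unadjusted p under 0.05, as did 7.33% of all probe sets (median log2 difference of the 17, -0.322). The mean level of the 17 ran from 7.15 to 7.50 in controls and from 6.77 to 7.24 in PolyI:C animals. Of 13 striatal markers 1 was lower past the adjusted threshold and 12 had lower means. Their mean level was 7.57 in control 5 and 7.42 in control 6, against 6.99 to 7.23 in the other controls and 6.96 to 7.10 in PolyI:C animals.

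Transcripts known for detained introns differed between the groups as well. Of 16, 6 were higher past the adjusted threshold in limma, against 2.02% of all probe sets, and 9 without controls 5 and 6. All 16 had higher means, as did 52% of all probe sets. Their mean level ran from 7.49 to 7.70 in controls and from 7.71 to 7.91 in PolyI:C animals. The part of these shifts in the scaffold and partner values was not tested. Without controls 5 and 6, none of the 9 scaffold genes passed in limma, Homer1 differed by 0.173 and Dlg1 by 0.115, Shank1 and Shank2 differed by 0.026 and 0.044 in place of 0.049 and 0.078, and 5 partner genes passed.

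**Figure D5:**
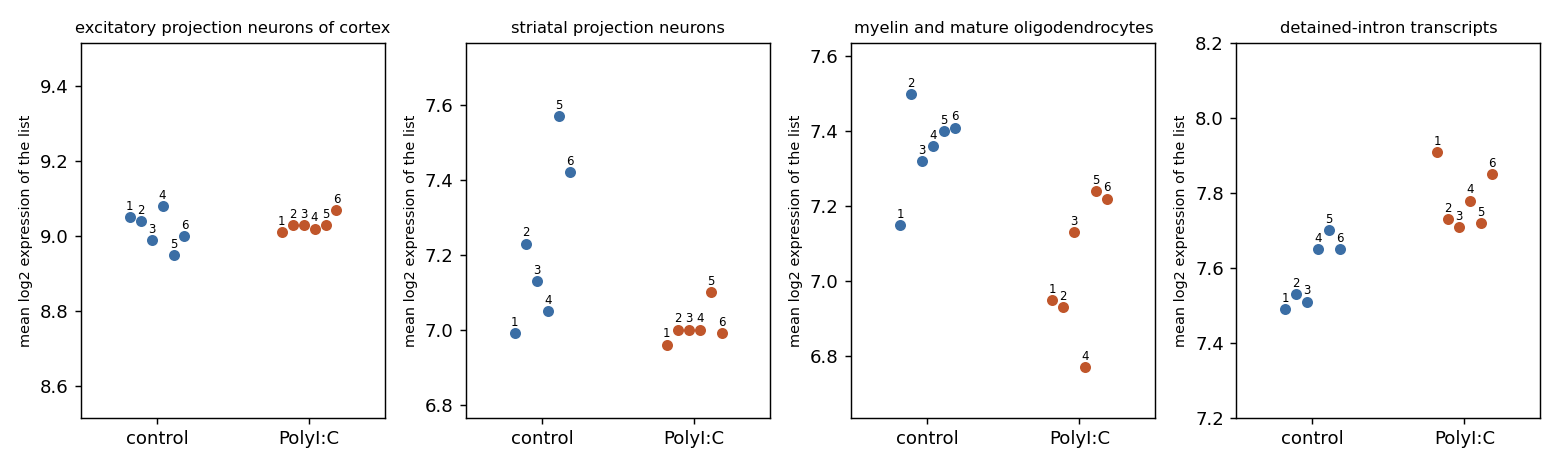
Mean log2 expression of 4 marker lists in each animal, numbered by replicate, with the same vertical span in every panel. Cortical excitatory markers overlap between groups, striatal markers are highest in controls 5 and 6 (7.57 and 7.42), and the detained-intron list separates the groups narrowly (highest control 7.70, lowest PolyI:C 7.71).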

How the data were processed

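Total RNA of each animal was hybridised to Affymetrix Mouse Gene 1.1 ST strips, per the labels' protocols. The authors deposited log2 values, 1 per probe set, judged by their scale (array medians 5.15 to 5.21). RMA and Partek 6.6 appear, with no role, per the submitters' processing notes. A genome build was not given in the sources used here, nor was the labelling kit clear. The number of arrays limits the precision.

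Of 35556 probe sets, 21218 carried 1 gene symbol, 1881 several and 12457 none, by a platform annotation that can be old; 21185 were matched to RefSeq's genes (GRCm38.p6) by gene identifier. The 23099 probe sets with a gene were tested as PolyI:C minus control in limma 3.58.1 (R 4.3.3), lmFit and eBayes, without covariates, two-sided, Benjamini-Hochberg adjusted over all of them; adjusted p-values come from this fit, and SE is its moderated standard error. Permutation tests and correlations used Python 3.11.15 with numpy 2.4.6, plots matplotlib 3.10.9. The scaffold genes, partner lists and marker lists were chosen with earlier results of these data known. Named partner genes were those past the threshold in a list or, with none, the 4 with the lowest p. Promoter windows are RefSeq's. Alternatives covered normalization, array weights, filters, moderation, the replicate block and left-out animals.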

Additional observations from a re-analysis of the deposited data

Results flagged for a closer look

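Within groups of 6, 3 values among 27 named genes in 2 groups each stood apart from the rest by a gap past Dixon's critical value for 6 samples; about 1 group in 20 does so by chance. Shank3 was lowest in PolyI:C 5 at 7.58, with the next animal at 7.78. Htr2a was lowest in control 2 at 8.51, with the next control at 8.67. Cttnbp2 was highest in PolyI:C 1 at 8.38, with the next animal at 8.27.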

How the results depend on the processing

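No scaffold gene passed under any alternative run, nor in the exact permutation test, whose smallest adjusted p over all probe sets was 0.091, so it could not have made a call. Without variance moderation 0 scaffold genes passed as well, with 2 at an unadjusted p under 0.05. With the replicate number as a block, 0 scaffold genes, 4 partner genes and 536 probe sets passed; Adam22 (adjusted p = 0.0764) and Cdk5 (0.0569) were lost. The numbers did not pair the animals: deviations of same-numbered animals correlated at -0.09 to 0.11, 1 of 6 above 0.1, and 1 of 6 controls correlated best with its own number. Differences near 0 changed sign: Dlg3 (between -0.008 and 0.010 with 1 animal left out), Shank3 (-0.021 after quantile normalization, -0.002 with median centring, -0.025 without controls 5 and 6, and -0.015 to 0.048 with 1 animal left out) and Dlg4 (-0.001 without controls 5 and 6). The number of probe sets past the threshold was 414 over all rows of the table and 122 without moderation, and 230 to 818 with 1 animal left out, moving by over 1.5 times without control 1 (331), control 2 (230), control 3 (281), PolyI:C 1 (236), PolyI:C 3 (396), PolyI:C 4 (302) or PolyI:C 6 (392). Partner genes past the threshold numbered 6, against 2 after quantile normalization, 3 with median centring, 1 over all rows, 2 without moderation, 9 with only the brighter probe sets tested (Trpc1, Mdm2 and Cttnbp2 were added), 8 with a robust variance trend and 1 to 8 with 1 animal left out. The comparison with the brighter probe sets was chosen after seeing the data.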

Other observations

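Looking at the opposite end of the likeness search, a step added after the data had been seen, the gene with the lowest correlation to Homer1 among 9519 genes was Gfap, the intermediate filament of astrocytes (r = -0.92, rho = -0.87, 12 animals, group means removed). Gfap was 7.24 in PolyI:C 6, where Homer1 was lowest, and 6.31, 6.46 and 6.46 in PolyI:C 3, 4 and 5, where Homer1 was highest. Its group means did not differ past the threshold (log2 difference -0.20 ± 0.13 SE, limma adjusted p = 0.42), and its within-group SD of 0.278 was larger than that of 99.7% of probe sets. For Shank1 the gene with the lowest correlation was Lin7a, itself a PDZ scaffold that binds Cask (r = -0.91, rho = -0.90), with values from 8.41 to 8.60 in controls and 8.49 to 8.63 in PolyI:C animals. Values this low were not particular to Homer1 and Shank1. The lowest r was -0.94 for Shank3 (Zfp788) and -0.92 for Dlg1 (Nudt16), Dlg2 (Adsl) and Shank2 (Rwdd1). It was -0.91 for Dlg3 (Ttc4) and Dlgap1 (Emc2) and -0.88 for Dlg4 (Snrnp25). As the lowest among 9519, these correlations carry no p.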
